A study of Rattus norvegicus with 4 samples.

Results

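The genes described here are 10 transcription factors of the rat ventral tegmental area that mark neurons other than dopamine neurons: Gata3, Pax7, Pax3, Meis2, Npas1, Isl1, Sim1, Foxb1, Lhx1 and Nkx2-1. They were found by symbol among the 32883 genes of the count tables, and all 10 were present. They had been chosen by their UMI levels and detection in GABA and glutamate neurons of these same data, so their levels and co-detection in the neuron classes are given as a description without a test. The ventral tegmental area is the midbrain region whose dopamine neurons project to the striatum and cortex, and it also holds neurons that release GABA, glutamate or both.

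The data were single-nucleus RNA counts from 4 libraries, 2 from female and 2 from male Sprague-Dawley rats of 90 to 120 days of age. Each library pooled the microdissected ventral tegmental area of 3 rats that had received no treatment, so a library mixes animals, and the library was the replicate (female 1, female 2, male 1, male 2). No genotype, transgene or drug was part of the design. The 4 libraries held 19714338 to 25824289 unique molecular identifiers (UMIs, counted RNA molecules), and 20620 of 21606 barcodes were kept as nuclei. Of the barcode sequences, 36 occurred in 2 libraries. The p-values below rest on these 4 pooled libraries. For sex within a gate they measure the spread between libraries. In the other tests library was a block, and they measure how differences within a library varied over the libraries. The tests between classes share an estimate of that spread over GABA, glutamate and dopamine nuclei.

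Nuclei were put into 4 gates by their own counts. The GABA gate asked for 2 or more UMIs of Gad1, which makes GABA, and held 1169 nuclei. The glutamate gate asked for 2 or more UMIs of Slc17a6, the vesicular glutamate transporter, and none of Gad1, and held 1633. The gate for both transmitters asked for at least 1 UMI each of Slc17a6, Slc32a1 (the vesicular GABA transporter) and Gad1 and held 32. The dopamine gate asked for 2 or more UMIs each of Th and Slc6a3, the dopamine-synthesis enzyme and the dopamine transporter, and held 323. In all, 3116 nuclei were in at least 1 gate, of which 21 were in both the GABA gate and the gate for both transmitters, 19 in the glutamate and dopamine gates and 1 in the GABA and dopamine gates. As background, 8742 oligodendrocyte nuclei (2 or more UMIs of Mog and none of Gad1, Slc17a6 or Th) were read in the same way.

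The gates were read against markers that their rules did not use. Gad2 stood at 404 to 528 counts per 1000000 UMIs (CPM) in the GABA gate and at 55.4 to 67.7 CPM in the glutamate gate, and Slc32a1 at 211 to 286 CPM and 16.5 to 25.8 CPM. Slc18a2, the vesicular monoamine transporter, stood at 346 to 457 CPM in the dopamine gate, 15.2 to 22.2 CPM in the GABA gate and 12.3 to 21.7 CPM in the glutamate gate, and Ddc, which makes dopamine from its precursor, at 1361 to 1652 CPM, 12.6 to 28.8 CPM and 87.7 to 143 CPM. Among other cell types, the 6 oligodendrocyte markers summed to 373 to 560 CPM in the GABA gate and to 378 to 504 CPM in the glutamate gate, and reached 2157 CPM in 1 library of the gate for both transmitters. The 3 serotonin markers did not exceed 1.90 CPM in any of the 4 gates. What part RNA of other cells had in the levels below was not tested. In oligodendrocyte nuclei the share with a UMI of any of the 10 genes, thinned to 2000 UMIs as described below, ran from 0.0190% (Nkx2-1) to 0.880% (Meis2).

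Transcription factors of the homeodomain, paired-box, zinc-finger and basic helix-loop-helix families divide the embryonic brain into regions, and many of them stay on in the neurons that arise there. In the midbrain, Gata2 and Gata3 with the partner Tal1 are known selectors of the GABA identity, whereas Pax3 and Pax7 mark the dorsal neural tube and the roof of the midbrain. Sim1, Foxb1, Lhx1 and Nkx2-1 are known from the developing hypothalamus and mammillary region, which lies just in front of the ventral tegmental area. Isl1 and Meis2 are widely used markers of hypothalamic, striatal and other GABA neurons.

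The 10 genes lie on 10 different chromosomes, so none neighbours another. RefSeq promoter sequences (build GRCr8, not the rn6 build named for the count tables) were given for 8 of them. The 250 bases before the start are shown for 3 genes that divided the GABA nuclei (Gata3, Pax7 and Pax3) and for 2 that were found together in glutamate nuclei (Sim1 and Nkx2-1). Capitals mark the letters GATA on either strand, the core that GATA factors read, and CANNTG on either strand, the core that basic helix-loop-helix factors such as Tal1 read. The windows were chr17:73553298-73553547 (plus strand) for Gata3, chr5:157381122-157381371 (minus) for Pax7, chr9:87112532-87112781 (minus) for Pax3, chr20:55410327-55410576 (plus) for Sim1 and chr6:79734868-79735117 (minus) for Nkx2-1.
Gata3: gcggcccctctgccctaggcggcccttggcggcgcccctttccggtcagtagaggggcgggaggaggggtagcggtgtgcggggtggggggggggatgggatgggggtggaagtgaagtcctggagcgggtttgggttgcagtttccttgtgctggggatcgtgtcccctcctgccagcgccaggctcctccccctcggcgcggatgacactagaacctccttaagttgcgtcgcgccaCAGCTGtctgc
Pax7: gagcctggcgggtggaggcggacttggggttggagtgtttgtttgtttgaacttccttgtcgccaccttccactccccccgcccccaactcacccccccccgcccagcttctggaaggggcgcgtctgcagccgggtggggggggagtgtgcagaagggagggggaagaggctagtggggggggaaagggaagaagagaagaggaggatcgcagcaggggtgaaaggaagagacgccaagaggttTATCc
Pax3: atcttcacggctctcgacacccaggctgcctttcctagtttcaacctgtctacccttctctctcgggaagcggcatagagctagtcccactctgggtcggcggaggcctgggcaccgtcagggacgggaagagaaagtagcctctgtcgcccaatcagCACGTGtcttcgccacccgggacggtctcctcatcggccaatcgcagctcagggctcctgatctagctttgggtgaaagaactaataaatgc
Sim1: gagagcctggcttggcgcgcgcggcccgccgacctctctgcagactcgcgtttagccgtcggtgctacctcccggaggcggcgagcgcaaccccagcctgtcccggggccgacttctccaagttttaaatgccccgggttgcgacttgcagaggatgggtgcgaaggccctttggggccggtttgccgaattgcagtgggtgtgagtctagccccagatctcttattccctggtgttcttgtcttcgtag
Nkx2-1: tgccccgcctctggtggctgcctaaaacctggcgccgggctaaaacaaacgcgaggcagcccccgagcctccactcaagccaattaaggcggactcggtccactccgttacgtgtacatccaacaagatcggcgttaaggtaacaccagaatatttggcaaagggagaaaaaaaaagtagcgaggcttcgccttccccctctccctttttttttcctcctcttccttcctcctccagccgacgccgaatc
Gata3 held 1 match of CANNTG and none of GATA, Pax7 held 1 match of GATA and none of CANNTG, and Pax3 held 1 match of CANNTG, which was also CACGTG. Sim1 and Nkx2-1 held neither. Of the 3 windows not shown, Isl1 held 1 match of each, Lhx1 held 1 match of GATA and none of CANNTG, and Npas1 held neither. Of all 33469 RefSeq promoters, 55.9% held GATA and 65.5% held CANNTG in the same 250 bases. The G and C content was 68.4% for Gata3, 63.6% for Pax7, 58% for Pax3, 63.2% for Sim1 and 55.2% for Nkx2-1, against a median of 51.2% over all promoters. A match is a run of letters and not a bound site.

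Across the neuron gates alone, the genes fell into a GABA group (Gata3, Pax7, Pax3, Meis2, Isl1), a glutamate group (Sim1, Foxb1, Nkx2-1) and a pair found in both (Npas1, Lhx1). At least 1 of the 10 genes had a UMI in 76.5% of GABA nuclei (70.8% to 79.6% by library), in 36.4% of glutamate nuclei (30.4% to 40.1%) and in 4.02% of dopamine nuclei (2.47% to 5.33%). The share was 1.99% in oligodendrocyte nuclei, which were shallower (median of 2326.5 UMIs against 7490 in the GABA, 8317 in the glutamate and 9114 in the dopamine gate). In astrocyte nuclei (2 or more UMIs of Aqp4, same exclusions, median of 3463 UMIs) it was 26.3% (24.5% to 28.3% by library). Meis2 had a UMI in 268 of these 1291 astrocyte nuclei. The set as a whole was thus not confined to neurons. To compare shares at 1 depth, each nucleus of at least 2000 UMIs was thinned to 2000 UMIs, and thinned shares are given as mean ± SD over libraries. In the sums of nuclei below, fewer cells with a gene and less RNA of it per cell cannot be told apart.

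**Figure D1:**
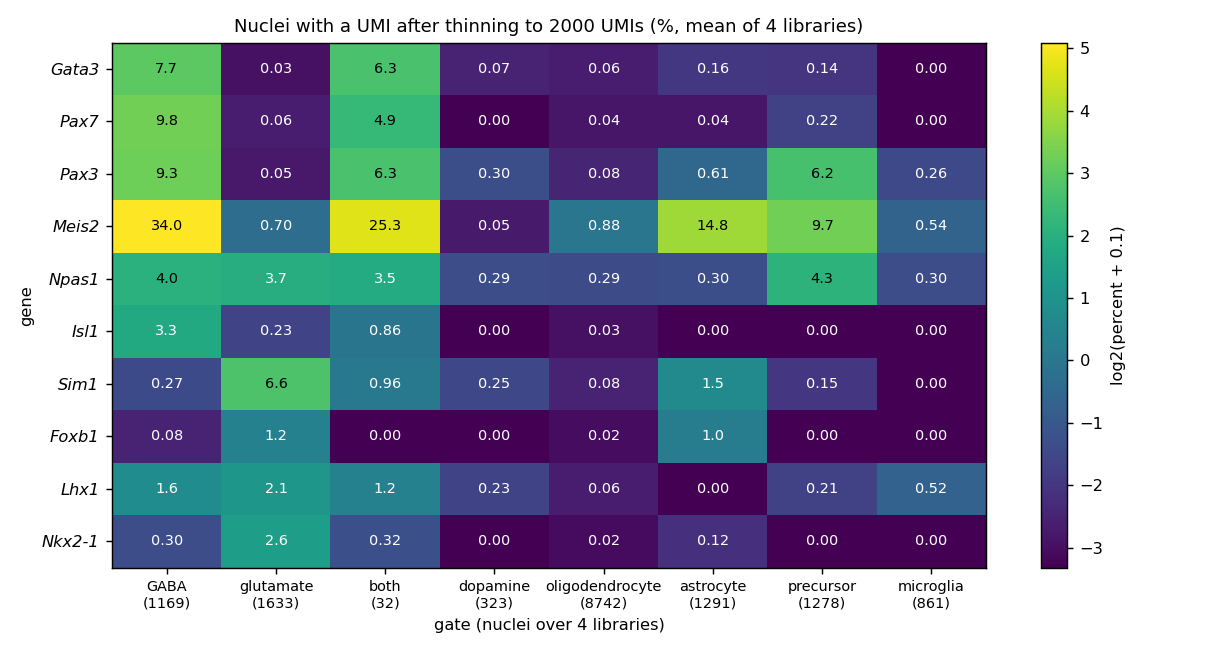
Share of nuclei with at least 1 UMI of each gene (rows) in each gate (columns, with the number of nuclei) after thinning nuclei of at least 2000 UMIs to that depth, in percent, mean of 4 libraries, with colour on a log2 scale. Meis2 in the GABA gate is the highest cell (34.0%), and the dopamine column stays at or below 0.305%. Meis2, Pax3, Npas1, Sim1 and Foxb1 also have values in the astrocyte or precursor columns.

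Gata3 (ENSRNOG00000019336), the zinc-finger selector of midbrain GABA neurons, stood at 49.3 and 49.9 CPM in the 2 female libraries and at 39.0 and 49.8 CPM in the 2 male libraries of the GABA gate. The 4 libraries lay close together. In the glutamate gate it was at 0, 0, 0.428 and 0.241 CPM, and in the dopamine gate 1 UMI was counted in 323 nuclei. Its thinned share was 7.73% ± 0.90 (SD, n = 4) in GABA and 0.0305% ± 0.0353 in glutamate nuclei, against 0.0584% in oligodendrocyte nuclei.

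Pax7 (ENSRNOG00000018739), a paired-box factor of the dorsal neural tube, stood at 62.2 and 74.7 CPM in the female and at 44.0 and 52.0 CPM in the male libraries of the GABA gate. Pax3 (ENSRNOG00000013670), its closest relative, stood at 72.7 and 79.2 CPM in the female and at 67.9 and 112 CPM in the male libraries. For Pax7 the female libraries were the higher pair, and for Pax3 the sexes overlapped. Thinned shares were 9.82% ± 2.15 for Pax7 and 9.30% ± 2.01 for Pax3 (SD, n = 4). In the glutamate gate both were at or below 0.869 CPM in every library, and Pax7 had no UMI in 323 dopamine nuclei, which allows a share of up to 0.929%.

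Meis2 (ENSRNOG00000004730), a homeodomain factor that pairs with Pbx proteins, stood at 565 and 714 CPM in the female and at 474 and 692 CPM in the male libraries of the GABA gate, and its thinned share was 34.0% ± 5.55 (SD, n = 4). In the glutamate gate it stood at 3.66, 26.5, 1.50 and 2.65 CPM, where female 2 was the high library; without it the mean was 2.60 CPM ± 1.08 (SD, n = 3). Meis2 was also dense within the nuclei that had it: the median was 12 UMIs over the 428 positive GABA nuclei, against 1 UMI for Gata3 and Pax7, 2 for Isl1 and Npas1 and 3 for Pax3, and only 2.34% of these nuclei rested on a lone UMI.

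Isl1 (ENSRNOG00000012556), a LIM-homeodomain factor, varied most between libraries of the GABA gate among the genes of the GABA group. It stood at 11.7 and 3.05 CPM in the female libraries and at 53.8 and 15.0 CPM in the male libraries. Male 1 stood apart, with 61 positive GABA nuclei against 9, 4 and 10 in the others, and it held all 11 Isl1-positive glutamate nuclei. The thinned share was 3.34% ± 3.81 (SD, n = 4) and 1.47% ± 0.92 (n = 3) without male 1. No Isl1 UMI was counted in dopamine nuclei.

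Npas1 (ENSRNOG00000015376), a basic helix-loop-helix PAS-domain factor known from forebrain GABA neurons, did not divide the 2 transmitter classes. It stood at 26.7, 24.0, 23.6 and 32.1 CPM in the GABA gate and at 21.9, 40.8, 13.7 and 20.5 CPM in the glutamate gate, the 2 female libraries first. The ranges overlapped, and thinned shares were 4.04% ± 0.69 and 3.72% ± 1.54. Lhx1 (ENSRNOG00000002812), a LIM-homeodomain factor, was low in both, at 10.4, 6.47, 8.09 and 8.04 CPM in the GABA gate and at 11.5, 12.2, 8.98 and 7.23 CPM in the glutamate gate. Most positive nuclei of Lhx1 rested on a lone UMI, 86.8% in the GABA and 87.1% in the glutamate gate.

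Sim1 (ENSRNOG00000037600), a basic helix-loop-helix PAS factor of hypothalamic and mammillary development, led the glutamate group. It stood at 52.5 and 25.6 CPM in the female and at 48.3 and 47.2 CPM in the male libraries of the glutamate gate, and at or below 2.68 CPM in every library of the GABA gate. Nkx2-1 (ENSRNOG00000008644), a homeodomain factor of the ventral forebrain, stood at 18.3, 2.17, 19.5 and 12.5 CPM in the same order. Foxb1 (ENSRNOG00000010547), a forkhead factor of the mammillary region, stood at 6.01, 0.434, 8.98 and 6.99 CPM. Female 2 was the low library for all 3. Thinned shares were 6.61% ± 2.06 for Sim1, 2.56% ± 1.51 for Nkx2-1 and 1.21% ± 0.78 for Foxb1 over 4 libraries, and 7.56% ± 0.93, 3.27% ± 0.58 and 1.59% ± 0.26 without female 2. Nkx2-1 and Foxb1 had no UMI in dopamine nuclei, and Sim1 had 5.

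In the gate for both transmitters, with 3 to 13 nuclei per library, Gata3 had a UMI in 6 nuclei, Meis2 in 10, Pax3 in 4, and Pax7, Npas1 and Lhx1 in 3 each. Sim1 had a UMI in 2, Isl1 and Nkx2-1 in 1 each and Foxb1 in none, which at this depth allows a share of up to 9.38%. Of the 32 nuclei, 21 were also counted in the GABA gate.

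**Figure D2:**
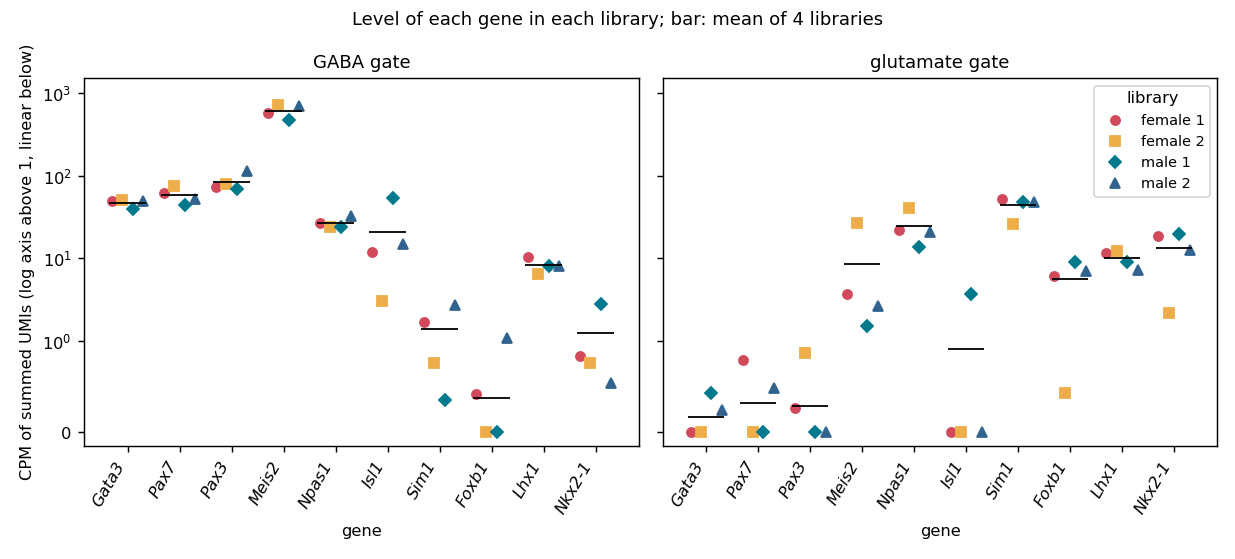
Level of each gene in CPM (vertical axis, logarithmic above 1 and linear below) in the GABA gate (left) and the glutamate gate (right), with a point for each library and a bar at the mean of 4. Isl1 in male 1 (53.8 CPM) lies above the other 3 libraries of the GABA gate, and Sim1, Foxb1 and Nkx2-1 in female 2 (25.6, 0.434 and 2.17 CPM) lie below the other 3 of the glutamate gate.

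Outside the neuron gates, several of the 10 genes were also found in glia, with Meis2, Pax3 and Npas1 at the highest shares. Meis2 had a thinned share of 14.8% ± 1.26 in astrocyte nuclei (2 or more UMIs of Aqp4) and of 9.67% ± 3.69 in oligodendrocyte precursor nuclei (2 or more UMIs of Pdgfra), though with a median of 2 and 1 UMIs per positive nucleus. Pax3 had a UMI in 107 precursor nuclei (6.18% ± 2.32 thinned), of which none had a Pax7 UMI. Npas1 had a UMI in 83 precursor nuclei (4.27% ± 1.55 thinned), which was near its shares in the GABA (4.04% ± 0.69) and glutamate gates (3.72% ± 1.54). Sim1 and Foxb1 had UMIs in 34 and 28 astrocyte nuclei, 1.53% ± 0.96 and 1.05% ± 0.45 thinned. For Foxb1 this was near its share in the glutamate gate (1.21% ± 0.78), and for Sim1 it was below (6.61% ± 2.06). Isl1 had none in 1291 astrocyte or 1278 precursor nuclei, which allows up to 0.232% and 0.235%.

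A part of the positive nuclei lay in no gate. For Gata3 these were 110 of 374 positive nuclei, of which 84 held a UMI of Gad1, Gad2 or Slc32a1. For Pax7 they were 165 of 461, 150 of them with such a UMI, and for Sim1 298 of 648, 142 of them with a Slc17a6 UMI. For Meis2, which is also in glia, they were 482 of 1448.

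Within the GABA gate, Gata3 and the Pax pair were found in nearly separate nuclei. Of 244 nuclei with a Gata3 UMI and 277 with a Pax7 UMI, 1 nucleus, in female 2, held both. Pax7 was thus in 0.41% of Gata3 nuclei and in 29.8% of the other GABA nuclei (0.0475% and 10.6% thinned). Gata3 and Pax3 shared 0 nuclei, which allows up to 1.23% of the Gata3 nuclei. Isl1 was set apart in the same way, with 2 of its 84 nuclei holding Gata3, 1 holding Pax7, and none holding Pax3, Meis2 or Lhx1. The count of 0 with Meis2 allows up to 3.57% of Isl1 nuclei, where Meis2 was in 39.4% of the GABA nuclei without Isl1.

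Pax7 and Pax3 were found together. Both had a UMI in 26 nuclei of female 1, 39 of female 2, 27 of male 1 and 26 of male 2, 118 in all. Pax3 was in 42.6% of Pax7 nuclei (37.1%, 42.4%, 49.1% and 43.3% by library) and in 8.63% of the GABA nuclei without Pax7, and the libraries did not overlap between these groups. Thinned, the shares were 22.6% and 7.86%. A Pax3 UMI without a Pax7 UMI was found in 77 GABA nuclei. Whether reads of these related genes were in part assigned to the wrong gene was not tested.

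Meis2 crossed these divisions, except for Isl1. It was in 51.3% of Pax7 nuclei and 32.1% of the GABA nuclei without Pax7 (47.9% and 32.4% thinned), with Pax7 nuclei higher in 4 of 4 libraries. It was in 45.1% of Gata3 nuclei and 34.4% of the others (39.2% and 33.5% thinned); in female 2 the order was the opposite, at 38.7% and 42.2%. Where Meis2 was present, its median was 11 UMIs in the 110 nuclei with Gata3, 15 in the 176 with Pax7 or Pax3 and 9 in the 143 with none of these 3. Npas1 went with Gata3, in 21.3% of Gata3 nuclei and 6.92% of the other GABA nuclei (25.4%, 21.0%, 22.4% and 16.4% against 6.73%, 6.02%, 7.45% and 7.51% by library), and was in 1.81% of Pax7 nuclei. These Npas1 shares are unthinned.

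By these genes, 241 GABA nuclei (20.6%) held Gata3 without Pax7, Pax3 or Isl1. Another 352 (30.1%) held Pax7 or Pax3 without Gata3 or Isl1, 81 (6.93%) held Isl1 without those, and 4 (0.342%) held more than 1 of the 3 kinds. A further 143 (12.2%) held Meis2 and none of the other 4 genes, and 348 (29.8%) held none of the 5. The Gata3 group took 18.2% to 22.9% of each library and the Pax group 22.0% to 38.3%. The Isl1 group took 19.2% of male 1 and 1.29% to 3.65% of the other libraries.

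In the glutamate gate, Sim1, Nkx2-1, Foxb1 and Lhx1 overlapped. Nkx2-1 was in 28.3% of the 290 Sim1 nuclei and in 5.36% of the glutamate nuclei without Sim1 (7.96% and 2.41% thinned). Sim1 nuclei that held Nkx2-1 numbered 31 of 92 in female 1, 28 of 78 in male 1 and 22 of 95 in male 2, and only 1 of 25 in female 2. Of the 79 Foxb1 nuclei, 41.8% held Sim1, 40.5% held Nkx2-1 and 24.1% held Lhx1. Of the 124 Lhx1 nuclei, 30.6% held Sim1 and 24.2% held Nkx2-1. Of the 161 Npas1 nuclei, 38 held Sim1, 5 held Nkx2-1 and 1 held Foxb1. The shares and counts of these Foxb1, Lhx1 and Npas1 nuclei are unthinned. Over all nuclei of the glutamate gate, the unthinned shares were 16.9% for Sim1, 8.66% for Nkx2-1, 7.67% for Lhx1 and 4.37% for Foxb1 (mean of 4 libraries).

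Nuclei with 2 or more of Sim1, Foxb1, Lhx1 and Nkx2-1 were 13.7% of the glutamate gate of female 1 and 1.20% of female 2, and 12.0% and 8.09% of male 1 and male 2. Nuclei with Sim1 and none of the other 3 did not follow that order, at 10.4%, 9.60%, 8.84% and 11.9%. Thus in female 2 the nuclei with Sim1 were largely those without Foxb1, Lhx1 or Nkx2-1, 24 of 25. In all, 1063 of 1633 glutamate nuclei (65.1%) held none of these 4 genes and no Npas1.

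**Figure D3:**
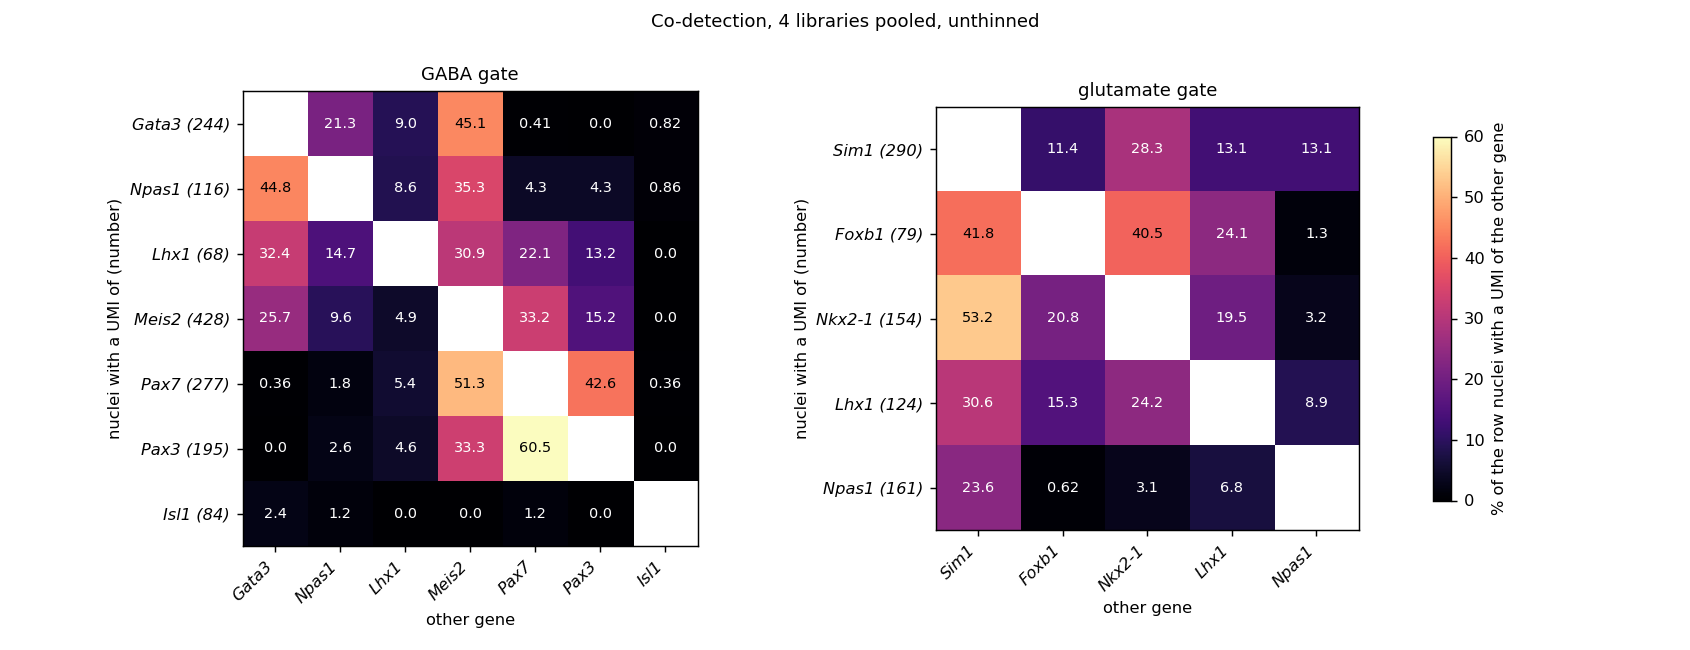
Co-detection in the GABA gate (left) and the glutamate gate (right): each cell gives the percent of nuclei with a UMI of the row gene (their number in brackets) that also held a UMI of the column gene, with 4 libraries pooled and no thinning. Gata3 against Pax7 and Pax3 is at 0.41% and 0%, Pax3 against Pax7 is at 60.5%, and the cells among Sim1, Foxb1, Nkx2-1 and Lhx1 lie between 11.4% and 53.2%.

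**Figure D4:**
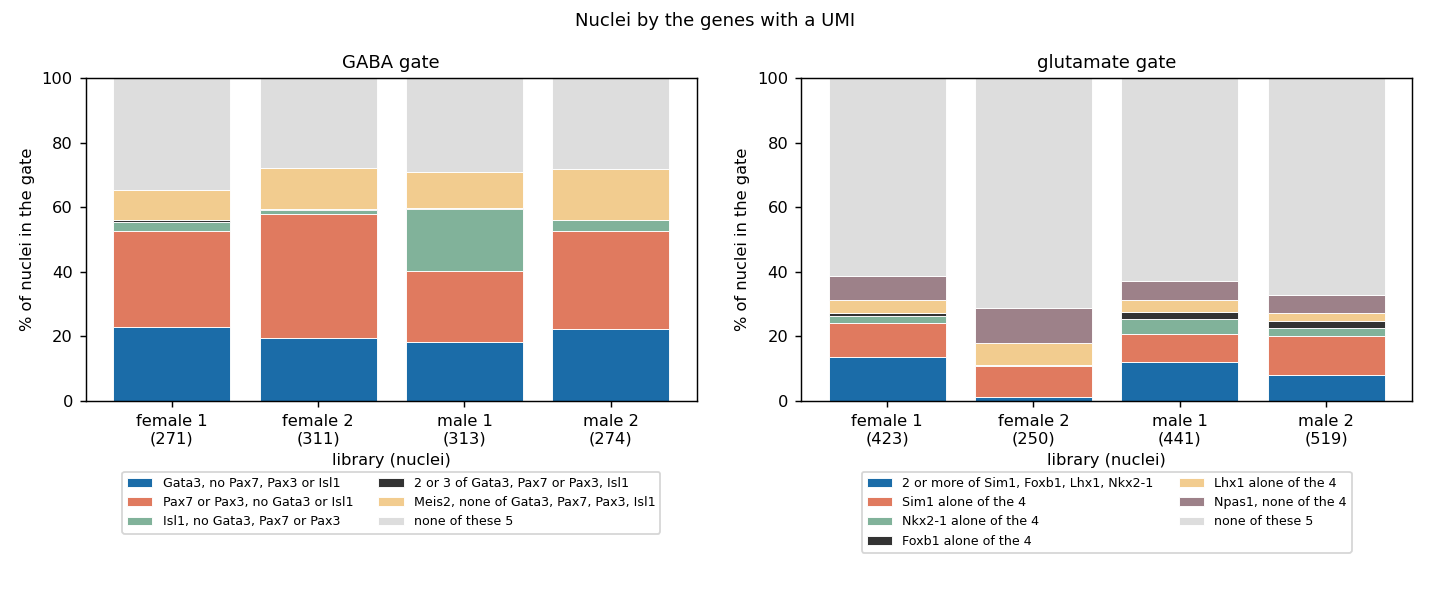
Nuclei of the GABA gate (left) and the glutamate gate (right) by the genes with a UMI, as stacked percent of each library's nuclei (number under each bar). The Isl1 share of male 1 (19.2%) and the low share of nuclei with 2 or more of Sim1, Foxb1, Lhx1 and Nkx2-1 in female 2 (1.20%) stand out, whereas the Gata3 share is 18.2% to 22.9% in all 4 libraries.

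The genes detected most alike were ranked by the Jaccard index (nuclei with both over nuclei with either) over the 3116 gated nuclei, averaged over 4 libraries. For Gata3 they were Tal1 (0.263), Gata2 (0.262) and Sox14 (0.239). Tal1 and Gata2 are its known partners in midbrain GABA neurons, and Tal1 was in 33.7% of Gata3 nuclei and 2.51% of the other gated nuclei. For Pax7 they were Chrna5 (0.354), a nicotinic receptor subunit, then Pax3 (0.329) and the growth factor Pdgfd (0.311), and Chrna5 was in 79.6% of Pax7 nuclei and 12.3% of the others. For Pax3 they were Pax7, Kitlg (0.263), which encodes the ligand of the Kit receptor, and Pdgfd (0.240). For Meis2 they were Gad1 (0.358), Egfr (0.327) and Slc32a1 (0.311). Gad1 defined the GABA gate and was absent by rule from the glutamate gate, and Meis2 had been chosen by its levels in these gates. The rank of Gad1 is thus no separate result. Slc32a1 was part of the rule for both transmitters.

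For Npas1 the index was low throughout, with the synaptotagmin Syt2 (0.163), the glycine receptor subunit Glra1 (0.155) and the cannabinoid receptor Cnr1 (0.148). For Sim1 they were the peptide genes Cartpt (0.196) and Penk (0.194) and the collagen Col19a1 (0.195). Penk was in 58.3%, 51.3% and 36.3% of the Sim1 nuclei of female 1, male 1 and male 2, and 13.8% of those of female 2. For Nkx2-1 they were AABR07064373.1 (0.254), Unc5b (0.197), a netrin receptor, and Cartpt (0.195). For Foxb1 they were Nkx2-1 (0.148), AABR07047089.1 (0.125) and Myo1e (0.119); the second rested on 1 shared nucleus in female 2. For Lhx1 they were LOC102553190 (0.158), Nxph4 (0.116) and Grm2 (0.111).

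For Isl1 the most alike genes were Hdc (0.415), the enzyme that makes histamine, Lef1 (0.346), a Wnt-pathway factor, and Bsx (0.324), a hypothalamic homeodomain factor. Hdc was in 6 of 9 Isl1 nuclei of female 1, 4 of 4 of female 2, 7 of 73 of male 1 and 8 of 10 of male 2. The Isl1 nuclei of male 1 were thus mostly without Hdc, unlike those of the other 3 libraries, though the number with Hdc was alike. Lef1 was in 7 of 9, 4 of 4, 26 of 73 and 7 of 10, and the peptide gene Gal in 4, 1, 8 and 6 of the same nuclei.

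Other transcription factors and transmitter genes were tested between the classes on UMIs summed per library and gate, with library as a block and all genes in the fit. Of 11928 genes, 13.5% were called in GABA minus glutamate (adjusted p under 0.05), and 38 of the 54 listed genes tested were called, 23 higher and 15 lower in GABA (6.48% and 7.06% of all genes). The listed genes had been chosen with results of these data in view. The median log2 difference over all genes was 0.01.

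Among 8 midbrain GABA factors tested, 7 were higher in GABA nuclei, none was lower, and the median log2 difference was 2.10. Gata2, the zinc-finger relative of Gata3, was at 13.4, 10.7, 9.87 and 19.3 CPM in GABA nuclei and had no UMI in glutamate nuclei, which makes it at least 62.5-fold higher against a floor of 3 UMIs over the glutamate nuclei of all libraries. It was called by edgeR (adjusted p = 5.4e-08) and not by DESeq2 (adjusted p = 0.213). Tal1 was at 22.6, 20.9, 20.4 and 17.7 CPM and had 1 UMI in glutamate nuclei, a ratio of 302 with a counting interval of 53.7 to 12003 (edgeR adjusted p = 2.1e-11). Zfpm2, a GATA cofactor, was higher by 0.92 ± 0.10 (log2, SE; edgeR adjusted p = 1.7e-07), and En1 was not called (-0.09).

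Among 8 hypothalamic and mammillary factors tested, 4 were higher in GABA and 2 in glutamate nuclei, with a median of 0.69. Nr4a2 was higher in glutamate nuclei (-4.06 ± 0.23, edgeR adjusted p = 9.8e-12), and this nuclear receptor of dopamine neurons was at 47.6 to 57.6 CPM in dopamine nuclei. Lef1, Irx3 and Irx5 were higher in GABA nuclei, and Lef1 was at 47.2 CPM in male 1 against 10.9 to 14.5 CPM in the other libraries, the same library in which Isl1 was high. Of 4 forebrain GABA factors tested, 3 were lower in GABA nuclei, led by Foxp2 (-1.54 ± 0.08, edgeR adjusted p = 6.1e-13), and the list's median was -0.44.

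Among 16 relatives and partners of Pax, Meis and Pbx tested, 5 were higher and 3 lower, with a median of 0.23. Meis1 was at 175, 280, 175 and 168 CPM in GABA and at 18.9, 32.2, 15.4 and 16.0 CPM in glutamate nuclei (3.30 ± 0.15, edgeR adjusted p = 1.6e-13), and like Meis2 it was highest in female 2 in both gates. Lmo1 was higher by 2.12 ± 0.14 (edgeR adjusted p = 1.1e-10). Tcf7l2 was higher by 1.54 ± 0.26 with edgeR (adjusted p = 0.00014) and not called by DESeq2 (adjusted p = 0.148). Of 18 transmitter and peptide genes tested, 7 were higher and 7 lower, among them Pnoc, the nociceptin precursor, higher in GABA nuclei by 2.03 ± 0.15, and Adcyap1, the PACAP precursor, lower by 4.15 on the log2 scale (-4.15 ± 0.15, edgeR adjusted p = 4.9e-15).

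In dopamine nuclei, where each of the 10 genes had at most 5 UMIs, several other regional factors were at 0 too. In dopamine minus the mean of GABA and glutamate nuclei, 30.9% of 11928 genes were called, and 45 of 54 listed genes, 20 higher and 25 lower (15.4% of all genes each way). Sox14, Irx3 and Irx5 had no UMI in dopamine nuclei and were at least 14.8-fold, 6.34-fold and 7.09-fold lower than in the other nuclei pooled, against a floor of 3 UMIs over all dopamine nuclei. The midbrain factors En1 (3.25 ± 0.29, edgeR adjusted p = 5.7e-09) and En2 (1.73 ± 0.24) went the other way, and so did Foxp2, at 1451 to 1694 CPM.

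By list, 2 of 8 midbrain GABA factors were higher and 4 lower in dopamine nuclei, with a median log2 difference of -1.57. Of 8 hypothalamic and mammillary factors, 2 were higher and 4 lower, with a median of -2.97, or -2.11 with the genes at 0 at their bound. That list includes Nr4a2, the nuclear receptor of dopamine neurons, which was among the higher. All 4 forebrain GABA factors tested were higher, with a median of 1.21. The 16 Pax, Meis and Pbx relatives split into 6 higher and 6 lower, and the 18 transmitter genes into 6 higher and 11 lower. The median over all genes was -0.01.

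Within the GABA gate, nuclei with Gata3 and no Meis2 UMI (27 to 38 per library) were compared with nuclei with Meis2 and no Gata3 UMI (60 to 105 per library). The 110 nuclei with both were left out. Of all 428 Meis2 nuclei of the gate, 176 held Pax7 or Pax3, so the contrast is in part one of Gata3 against Pax nuclei. Of 7399 genes, 16.3% were called, and 21 of 28 listed genes, 10 higher and 11 lower in the Gata3 nuclei (7.01% and 9.3% of all genes). The Gata3 nuclei were deeper, with medians of 7099 to 10003 UMIs by library against 5743 to 7173, and the part of depth in the calls was not tested. Gata3 and Meis2 defined the nuclei compared, and Pax7 and Pax3, like Meis2, had no UMI in these Gata3 nuclei in any library; in Meis2 nuclei Pax7 stood at 86.2 to 142 CPM and Pax3 at 38.1 to 120 CPM, given without a test. By fitted fold among called genes other than the 10, Lum, Arhgap42 and Meox2 fell furthest in Gata3 nuclei and Pax5, Egflam and Tal1 rose most. Lum, which encodes the proteoglycan lumican, stood at 199, 155, 207 and 217 CPM in Meis2 nuclei and had no UMI in Gata3 nuclei, at least 84.3-fold lower against a floor of 3 UMIs over all Gata3 nuclei. Arhgap42 and Meox2 had no UMI there either, at least 44.5-fold and 33.9-fold lower.

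All 3 midbrain GABA factors tested were called. Tal1 stood at 34.5, 44.7, 59.9 and 49.2 CPM in Gata3 nuclei and at 1.87 to 4.24 CPM in Meis2 nuclei (3.81 ± 0.44, edgeR adjusted p = 6.3e-09). Zfpm2 was higher in Gata3 nuclei by 2.63 ± 0.19, at 527 to 601 CPM against 23.3 to 182 (edgeR adjusted p = 1.4e-13). Zfpm1, a second GATA cofactor, went the other way, at 4.92 to 19.97 CPM in Gata3 nuclei and 28.0 to 35.9 CPM in Meis2 nuclei (-1.41 ± 0.38, edgeR adjusted p = 0.0067). It was not called by DESeq2 (adjusted p = 0.134) or without female 1 (adjusted p = 0.067). The list's median was 2.63.

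Of 13 Pax, Meis and Pbx relatives tested, 4 were higher and 4 lower in the Gata3 nuclei, and the median was -0.04. Pax5, a paired-box factor of the midbrain-hindbrain boundary, stood at 54.7, 36.8, 57.4 and 73.9 CPM in Gata3 nuclei and at 1.87 to 3.42 CPM in Meis2 nuclei (4.19 ± 0.43, edgeR adjusted p = 6.0e-10). Pax5 thus went with Gata3, where Pax3 and Pax7 did not. Meis1 stood at 659, 704, 657 and 470 CPM in Meis2 nuclei and at 13.2 to 25.0 CPM in Gata3 nuclei (-5.22 ± 0.20, edgeR adjusted p = 9.5e-22). Pbx3, whose product is a partner of Meis proteins, was also lower in Gata3 nuclei (-2.04 ± 0.14, edgeR adjusted p = 2.4e-14), while Lmo4 and Tcf7l2 were higher in Gata3 nuclei.

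Of 8 transmitter and peptide genes tested, 2 were higher and 5 lower, with a median of -1.45. Nos1, the neuronal nitric oxide synthase, stood at 415, 392, 438 and 435 CPM in Meis2 nuclei and at 20.1, 31.6, 54.9 and 39.4 CPM in Gata3 nuclei (-3.60 ± 0.18, edgeR adjusted p = 5.1e-18). Nts, the neurotensin precursor, stood at 90.1 to 144 CPM against 2.50 to 14.8 (-3.91 ± 0.30, edgeR adjusted p = 5.8e-13). Gad2 (1.60 ± 0.13, edgeR adjusted p = 2.0e-12) and Pnoc (1.65 ± 0.17, edgeR adjusted p = 9.8e-10) were higher in Gata3 nuclei. Of 4 forebrain GABA factors, Zfhx3 (1.78 ± 0.22) and Foxp1 (1.18 ± 0.18) were higher and Foxp2 (-0.89 ± 0.16) was lower, all with an edgeR adjusted p of at most 2.9e-05, and the median was 0.51. No hypothalamic or mammillary factor passed the filter on low counts.

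Within the glutamate gate, nuclei with a Sim1 or Foxb1 UMI (103, 26, 95 and 112 by library) were compared with the nuclei that held neither. The 19 glutamate nuclei that were also in the dopamine gate were kept, and their part in the calls was not tested. Slc6a3 had 2 UMIs in the nuclei with Sim1 or Foxb1 and 206 in those with neither. Of 10736 genes, 7.16% were called, and 19 of 41 listed genes, 7 higher and 12 lower (3.51% and 3.65% of all genes). Nuclei with Sim1 or Foxb1 were deeper, with medians of 7917 to 11267 UMIs against 6917 to 9218.5, and the part of depth was not tested. The 769 genes called became 491 without female 1, 1119 without female 2, 341 without male 1 and 456 without male 2. The transmitter and peptide list split into 5 higher and 4 lower of 15, with a median of -0.22. Penk, the enkephalin precursor, stood at 331, 90.1, 356 and 229 CPM with Sim1 or Foxb1 and at 77.2, 19.4, 64.2 and 79.6 CPM without (2.11 ± 0.14, edgeR adjusted p = 3.8e-07). Cartpt stood at 287, 62.3, 384 and 151 CPM against 93.4, 40.7, 96.4 and 83.7 CPM (1.49 ± 0.17, edgeR adjusted p = 6.6e-05). Both were lowest in female 2 on either side, and higher with Sim1 or Foxb1 in 4 of 4 libraries.

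Gad2 was lower in Sim1 or Foxb1 nuclei, at 3.01 to 16.7 CPM against 66.1 to 90.9 (-3.11 ± 0.26, edgeR adjusted p = 3.4e-06), and so was Calb2, the calretinin gene (-1.43 ± 0.14, edgeR adjusted p = 1.6e-05). Of 16 Pax, Meis and Pbx relatives tested, none was higher and 6 were lower, with a median of -0.46, among them Pbx3 (-1.63 ± 0.17), Lmo3 (-1.52 ± 0.18) and Lmo4 (-1.31 ± 0.15), each with an edgeR adjusted p of at most 7.1e-05. Of 4 hypothalamic and mammillary factors tested, 1 was higher and 1 lower, with a median of 0.44. The lower one was Nr4a2 (-2.37 ± 0.38, edgeR adjusted p = 0.00087), which is in this list but is also the nuclear receptor of dopamine neurons named above.

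By fitted fold among called genes other than the 10 (Sim1 and Foxb1 defined the nuclei), those that rose most in Sim1 or Foxb1 nuclei were Trabd2b (2.90 ± 0.34), Myo1e (2.85 ± 0.19) and Fam198b (2.66 ± 0.21). Myo1e, a motor protein gene, stood at 152, 13.9, 86.9 and 23.1 CPM, against 20.5, 1.99, 10.5 and 6.03 CPM with neither, so its level varied widely between libraries but was higher in 4 of 4. Those that fell most were Bnc2 (-5.98 ± 0.36), Lmx1b (-5.19 ± 0.39), a LIM-homeodomain factor of midbrain dopamine and glutamate neurons, and Fgd5, which had 1 UMI in Sim1 or Foxb1 nuclei (a ratio of 47.1, counting interval 8.33 to 1871). Lmx1b stood at 38.1, 42.2, 46.4 and 54.9 CPM in the nuclei with neither. Of the 2 midbrain GABA factors tested none was called, and of the 4 forebrain GABA factors Zfhx3 was higher and Foxp2 lower. Foxp2 stood at 273, 679, 190 and 316 CPM with Sim1 or Foxb1 and at 711 to 771 CPM without, so that female 2 was again the library that stood apart.

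**Figure D5:**
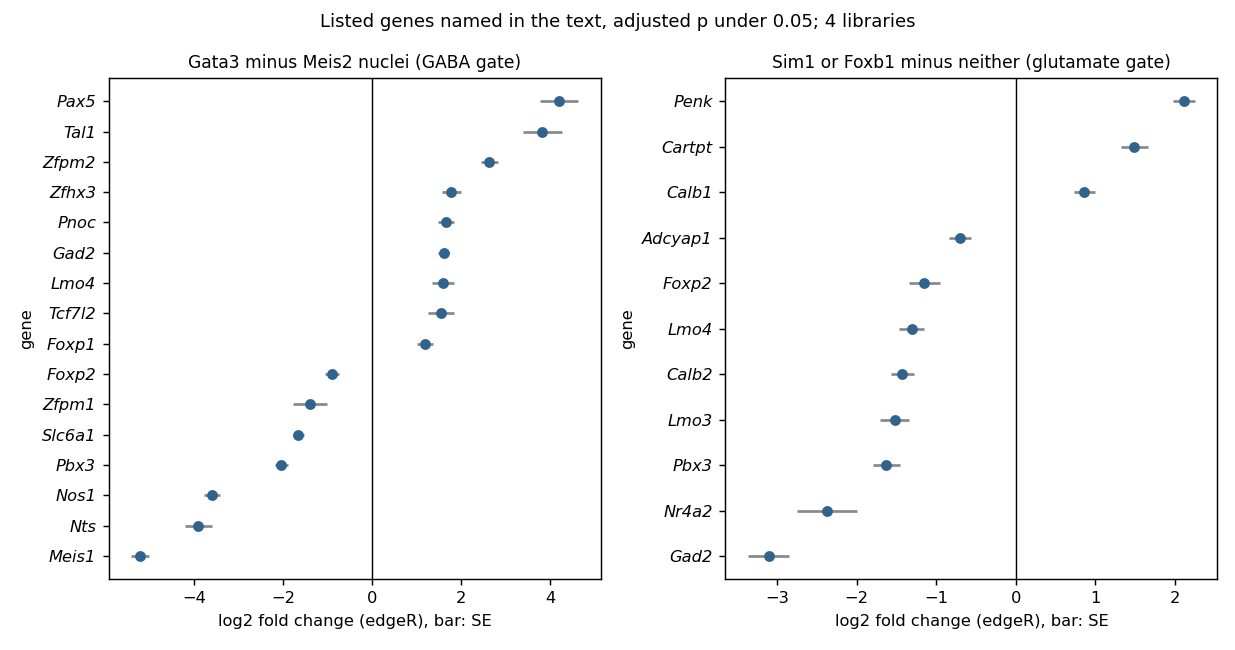
Log2 fold change (horizontal axis, edgeR; bars are SE; 4 libraries) of the listed genes named in the text, in Gata3 against Meis2 nuclei of the GABA gate (left) and in nuclei with Sim1 or Foxb1 against those with neither in the glutamate gate (right). Pax5 (4.19) and Meis1 (-5.22) are the ends of the left panel, and Penk (2.11) and Gad2 (-3.11) those of the right.

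Sex was the only factor in the labels, and it had played no part in the choice of the 10 genes. Female and male libraries were compared within each gate, 2 against 2. In the GABA gate 7 of the 10 genes passed the filter on low counts and 0 were called, where 0.093% of 11830 genes were; at an unadjusted p under 0.05 there were 805 genes, Isl1 and Pax7 among them, and DESeq2 called 14 genes and none of the 7. Leaving out a library gave 15 to 147 genes. In the glutamate gate edgeR and DESeq2 called 0 of 6, where edgeR called 0.0549% of 12757 genes. At an unadjusted p under 0.05 with edgeR there were 419 genes, Meis2 and Npas1 among them. In the gate for both transmitters Meis2 alone was tested and not called, as was none of 2410 genes by edgeR or DESeq2 (114 at an unadjusted p under 0.05 with edgeR). In the dopamine gate none of the 10 was abundant enough to be tested, and 0.0874% of 9158 genes were called.

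Of the 7 genes tested in the GABA gate, Isl1 had the lowest p, whose levels are given above, with a log2 difference female minus male of -2.28 ± 0.56 (edgeR adjusted p = 0.561). That value rested on male 1: without it the difference was -1.04 (edgeR adjusted p = 0.955), whereas Isl1 was called without female 1 (-3.52, edgeR adjusted p = 0.0015) and without male 2 (-2.85, edgeR adjusted p = 1.4e-05). Pax7 was higher in both female libraries by 0.55 ± 0.18 and was not called (edgeR adjusted p = 0.677). Gata3 (0.20 ± 0.19), Meis2 (0.16 ± 0.18), Pax3 (-0.19 ± 0.21), Npas1 (-0.09 ± 0.24) and Lhx1 (0.09 ± 0.39) lay within 2 standard errors of 0.

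Of the 6 genes tested in the glutamate gate, Meis2 differed most, by 2.73 ± 0.84 (edgeR adjusted p = 0.999), on a high value in female 2, and without that library the difference was 0.83 (edgeR adjusted p = 0.9997). Without female 1 it was called (3.65, edgeR adjusted p = 0.0028). Npas1 differed by 0.83 ± 0.32, Lhx1 by 0.53 ± 0.29, Foxb1 by -1.11 ± 0.61, Nkx2-1 by -0.50 ± 0.57 and Sim1 by -0.25 ± 0.27, all with an edgeR adjusted p of 0.999. The difference of the sex effect between the GABA and glutamate gates was tested for all 10, and edgeR and DESeq2 called 0, against 0.0478% of 12549 genes with edgeR. Meis2, Npas1 and Pax3 had an unadjusted p under 0.05 with edgeR, as had 652 of the 12549 genes. Meis2 had the lowest p of the 10 there (-2.44 ± 0.63, edgeR adjusted p = 0.480), and it was called without female 1, male 1 or male 2 but not without female 2.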

How the data were processed

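Nuclei of the rat ventral tegmental area were sorted with the DNA dye 7-AAD and profiled with 10x Genomics 3′ chemistry (version 3) in 4 libraries. The deposited values are raw UMI counts per gene and barcode, made with Cell Ranger on the rn6 build per the submitters' processing notes and with software version 3.0.2 per the file headers. No other upstream step is recorded in the labels or headers. Barcodes with fewer than 200 genes or over 5% mitochondrial UMIs (6) and the 980 highest Scrublet doublet scores (0.8% per 1000 barcodes; scanpy 1.11.5) were removed. Thinned shares are expectations at 2000 UMIs. Sums per library and gate were tested with edgeR 4.0.16 (TMM, filterByExpr, quasi-likelihood test, Benjamini-Hochberg adjustment, R 4.3.3), with library as a block between classes and no covariate for sex, and DESeq2 1.42.0 was an alternative. Nuclei in 2 of the GABA, glutamate and dopamine gates were left out between classes and for the difference of the sex effect between gates. The splits within a gate and the sex tests within a gate kept them. Scripts were tested on simulated data. A standard error is the absolute log2 fold change divided by the square root of F. Counting intervals and limits (3 counts, 95% level) cover counting error only.

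The 10 genes and all lists were chosen with earlier results of these data known. The text names, per test and list, up to 3 called genes in each direction by adjusted p (at least 10 CPM in a compared group, same direction in 4 libraries) and, in the splits, the 3 largest called changes each way among genes other than the 10. Some genes that this rule names are not reported here. Others named were chosen after their values were seen.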

Additional observations from a re-analysis of the deposited data

Results flagged for a closer look

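Among the listed genes, Sst, the somatostatin precursor, had a sex difference that differed between the GABA and glutamate gates, by -1.25 on the log2 scale (female minus male in GABA minus the same in glutamate; SE 0.20; edgeR adjusted p = 0.0461). Sst stood at 84.8, 60.6, 88.5 and 86.3 CPM in the GABA gate and at 45.8, 31.3, 21.9 and 16.0 CPM in the glutamate gate, in the order female 1, female 2, male 1 and male 2, and DESeq2, which called 1 gene in all, did not call it.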

How the results depend on the processing

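The signs of the 12 co-detection differences named in the text did not change under any alternative run, though 14 of their values moved with a thinning depth of 1000 or 4000 UMIs. The genes called in GABA minus glutamate were 1052 without the library block. In the Gata3 and Meis2 split DESeq2 called 638 genes, and 32 listed genes were called with no filter on low counts. In the Sim1 or Foxb1 split DESeq2 called 445 genes, a gate minimum raised by 1 gave 510, leaving out 1 library gave 341 to 1119, and 29 listed genes were called with no filter. The cause was not tested.

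For sex, no filter on low counts gave 103 called genes in the GABA gate, 46 in the glutamate gate, 2 in the gate for both transmitters and 24 in the dopamine gate, and 67 for the difference between gates, with 1 of the 10 genes called in the GABA gate, 1 in the glutamate gate and 1 for the difference between gates. Leaving out 1 library gave 15 to 147 genes in the GABA gate, 9 to 38 in the glutamate gate, 1 to 18 in the gate for both transmitters, 5 to 39 in the dopamine gate and 34 to 72 for the difference between gates. Of the 10 genes, it gave 0 to 1 in the GABA gate, 0 to 1 in the glutamate gate and 0 to 2 for the difference between gates. With doublets kept, 2 genes were called in the gate for both transmitters and 11 for the difference between gates, and DESeq2 called 1 gene for that difference. Leaving out 1 library moved the sex difference of Meis2 in the gate for both transmitters from -1.48 (without female 2) to 0.34 (without female 1), and the difference between gates for Isl1 from -0.82 (without male 1) to 4.09 (without female 2).

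The labels give the libraries replicate numbers and no shared source, so the numbers do not pair them. With the replicate number as a block, 18 genes were called in the GABA gate, Isl1 among them (edgeR adjusted p = 0.00444), 11 in the glutamate gate and 3 in the gate for both transmitters, and 1 of the 10 genes was called in the GABA gate. The correlation of same-numbered libraries was 0.142 in the GABA, 0.264 in the glutamate, 0.0256 in the both-transmitter and 0.0772 in the dopamine gate. A gate minimum raised by 1 gave no value for the gate for both transmitters. Depth limits the detection of several genes: 83.5% of Foxb1-positive, 87.1% of Lhx1-positive and 68.2% of Nkx2-1-positive glutamate nuclei, and 51.2% of Gata3-positive and 50.9% of Pax7-positive GABA nuclei, held 1 UMI.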
